A study of Mus musculus with 24 samples.

Results

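The maturation of the retina of mice lacking Nrl was followed from postnatal day 2 (P2) to postnatal day 10 (P10). The 8 arrays of this comparison were those titled as Nrl knockout at P2 (4 replicates) and at P10 (4 replicates), out of 24 arrays in the series. Each array measured total RNA of whole mouse retina by hybridisation of biotin-labelled material to oligonucleotide probe sets. Wild-type retina at P2 and P10, with 4 arrays each, gave the reference for the same interval, and the remaining 8 arrays, both genotypes at 2 months, entered the fit to help estimate the spread. Nrl-/- and wild-type mice had a mixed background of the R1 and C57BL/6 strains, and no treatment or second allele is named in the labels. Whether each replicate came from a single animal or from pooled retinas is not given, and p-values here reflect the spread among these samples, which may in part be technical. No extraction, hybridisation or scan batch is named either, so that age cannot be told apart from a batch that ran with it.

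Nrl is a leucine zipper transcription factor that commits newly born photoreceptor precursors to the rod fate. Without it, precursors that would become rods develop with cone features, in particular those of cones that carry the short-wavelength opsin. In the mouse the first postnatal week is also the time when the last progenitors leave the cell cycle, giving rise to late rods, bipolar cells and Müller glia, and the following days are when outer segments and synapses form. In phototransduction an opsin activates the G protein transducin, which releases the inhibition of a cyclic GMP phosphodiesterase, so that cyclic nucleotide-gated channels close. Rods and cones use separate versions of most of these proteins and share others.

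Among the largest changes of this interval were rises of photoreceptor genes and falls of cell cycle genes. The promoters of 6 such genes, the 250 bases before the gene start, are shown here because 9 of 10 cone genes and 15 of 19 genes shared by rods and cones rose, and 41 of 46 cell cycle genes fell. The sequences are from RefSeq on mouse assembly GRCm38.p6 and run 5′ to 3′ on the strand of the gene. For Gnat2 (chr3:108092816-108093065, plus strand), Guca1a (chr17:47400607-47400856, minus strand), Sag (chr1:87803430-87803679, plus strand) and Opn1sw (chr6:29380514-29380763, minus strand), capitals mark TAATCC or its reverse complement GGATTA, the core sequence that the photoreceptor homeodomain proteins CRX and OTX2 are known to bind. For Cdk1 (chr10:69352913-69353162, minus strand) and Top2a (chr11:99024190-99024439, minus strand), capitals mark CCAAT or its reverse complement ATTGG, the box bound by the factor NF-Y in many promoters of dividing cells.
Gnat2: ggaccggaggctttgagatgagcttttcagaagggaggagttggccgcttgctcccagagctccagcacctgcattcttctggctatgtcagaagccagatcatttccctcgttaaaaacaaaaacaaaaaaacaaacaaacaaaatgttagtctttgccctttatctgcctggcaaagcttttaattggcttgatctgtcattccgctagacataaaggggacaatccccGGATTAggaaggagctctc
Guca1a: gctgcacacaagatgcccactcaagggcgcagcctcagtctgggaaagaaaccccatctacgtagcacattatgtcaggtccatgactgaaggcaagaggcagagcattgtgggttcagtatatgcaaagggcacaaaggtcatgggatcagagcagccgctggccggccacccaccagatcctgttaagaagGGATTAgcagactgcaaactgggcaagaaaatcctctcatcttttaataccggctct
Sag: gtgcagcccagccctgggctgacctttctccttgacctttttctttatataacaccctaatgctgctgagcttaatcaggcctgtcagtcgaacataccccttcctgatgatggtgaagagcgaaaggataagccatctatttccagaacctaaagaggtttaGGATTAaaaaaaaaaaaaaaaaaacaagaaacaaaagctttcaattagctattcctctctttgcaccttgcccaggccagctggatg
Opn1sw: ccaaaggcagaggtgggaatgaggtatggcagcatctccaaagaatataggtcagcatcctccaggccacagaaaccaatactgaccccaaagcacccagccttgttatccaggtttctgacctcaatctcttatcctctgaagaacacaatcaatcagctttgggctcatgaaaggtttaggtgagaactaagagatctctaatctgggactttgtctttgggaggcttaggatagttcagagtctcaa
Cdk1: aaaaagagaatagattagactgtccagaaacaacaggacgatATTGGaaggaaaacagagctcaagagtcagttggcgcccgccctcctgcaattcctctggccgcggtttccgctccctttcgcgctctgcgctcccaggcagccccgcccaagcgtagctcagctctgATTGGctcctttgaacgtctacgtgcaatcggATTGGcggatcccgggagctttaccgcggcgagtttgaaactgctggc
Top2a: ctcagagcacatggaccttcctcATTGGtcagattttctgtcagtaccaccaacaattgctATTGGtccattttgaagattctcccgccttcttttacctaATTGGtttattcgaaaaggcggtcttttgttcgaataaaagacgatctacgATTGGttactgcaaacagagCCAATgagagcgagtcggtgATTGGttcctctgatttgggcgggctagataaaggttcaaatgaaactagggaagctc

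The motif searches, on both strands, were chosen with results of these data known and describe these windows only. TAATCC was present for 3 of 7 cone genes with a window (42.9%), 7 of 17 genes shared by rods and cones (41.2%), 1 of 5 rod genes and 1 of 38 cell cycle genes (2.63%), against 7.21% of 27025 genes with a window. Gnat2 had its match at position -19 relative to the gene start, Guca1a at -57 and Sag at -87, whereas the Opn1sw window held 0 matches. CCAAT was present for 30 of 38 cell cycle genes (78.9%), against 37.5% of all genes, with 3 matches in the Cdk1 window and 6 in that of Top2a. The Birc5 window held 0 matches. CCAAT was not particular to the cell cycle list. It was present for 4 of 5 rod genes, 19 of 27 progenitor genes (70.4%) and 4 of 7 cone genes (57.1%). For shared photoreceptor genes the count was 8 of 17 (47.1%), and for presynaptic genes 6 of 17 (35.3%). TTTGAA, the cell cycle homology region, was present for 13 of 38 cell cycle genes (34.2%), against 18.3% of all genes. The motifs can overlap at their ends, and each was counted on its own. A match was not taken as a binding site.

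Values are given below as RMA intensity on the linear scale of the deposited table, as mean ± SD over 4 arrays. A change is P10 minus P2 on the log2 scale ± standard error from limma, and a gene was called when its adjusted p (Benjamini-Hochberg over 12422 probe sets, two-sided) was under 0.05. Each of 8251 genes was represented by its brightest probe set. The table holds no detection calls, so intensities near 15 and below cannot be told from background, and a fall to such a level, or a change between such levels, has an uncertain size. On the knockout arrays 13.3% to 15.1% of the probe sets lay below 15.

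The change of the targeted gene was not called in the knockout. Nrl read 45.2, 49.0, 56.4 and 54.6 at P2 and 44.6, 56.2, 46.7 and 51.5 at P10, and the groups overlapped (change -0.04 ± 0.11, adjusted p = 0.777). In wild-type retina Nrl went from 60.4 ± 0.74 to 135 ± 14.4 over the same days, and the difference between the genotypes' changes was -1.20 ± 0.15 (adjusted p = 4.84e-06). The labels do not say whether the probes lie in the deleted part.

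Between P2 and P10, 4015 of 12422 probe sets were called in knockout retina (32.3%), 2216 higher and 1799 lower at P10. This split moved with the scaling: after centring each array on its median, 1712 probe sets were higher and 2075 lower, and after quantile normalisation 2000 and 1967. A change of at least 2-fold was called for 504 probe sets (4.06%), of which 297 fell and 207 rose, and a change of at least 4-fold for 74 that fell and 27 that rose. By gene, 20.1% rose and 16.4% fell, with a median change of 0.08 over the 8251 genes, and these shares are the background for the gene groups that follow. Of 3018 genes called, 2569 had no overlap between the arrays of the 2 ages, so a lack of overlap was common. Array medians lay between 61.7 and 70.3 at P2 and between 69.5 and 70.5 at P10, and P2 replicate 1 had the lowest. Without that array 3559 probe sets were called.

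Cone genes rose in retina without Nrl. Of 10 measured cone genes, 9 rose and 0 fell, with a median change of 1.58, against 0.45 for the same genes in wild-type retina. The S-opsin gene Opn1sw, the short-wavelength cone pigment, read 386, 376, 426 and 426 at P2 and 3623, 4173, 3665 and 4148 at P10. Every P10 array was thus above every P2 array, with a change of 3.27 ± 0.12 or 9.67-fold (adjusted p = 2.79e-18). In bulk tissue more RNA per cell and more cells of a type cannot be told apart, here and in the groups that follow.

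Signalling partners of the pigment rose with it. Gnat2, the alpha subunit of cone transducin, went from 113, 104, 123 and 130 to 881, 903, 997 and 959, a change of 2.99 ± 0.13 (adjusted p = 6.43e-17). Gnb3, the beta subunit, which bipolar cells also use, read 505, 521, 795 and 701 at P2 and 2968, 3461, 3653 and 4021 at P10 (2.50 ± 0.15, adjusted p = 4.59e-14). Gngt2, the gamma subunit, read 208, 174, 201 and 215 at P2 and 733, 683, 694 and 725 at P10 (1.83 ± 0.08, adjusted p = 1.28e-16). All 3 subunits of the cone G protein therefore rose in the same retinas, with no overlap between the ages. Guca1a, a calcium sensor that activates photoreceptor guanylate cyclase, showed the largest change of the cone list. It stood at 69.7, 68.8, 99.0 and 95.1 at P2 and at 1381, 1719, 1825 and 1536 at P10 (4.29 ± 0.19 or 19.6-fold, adjusted p = 1.4e-16). A high Guca1a level was not confined to the knockout. At 2 months Guca1a read 3475 ± 547 in wild type and 5018 ± 608 in the knockout, whereas Gnat2 read 306 ± 18.7 and 2339 ± 390. Cnga3, a subunit of the cone cyclic nucleotide-gated channel, rose from 55.5 ± 7.94 to 136 ± 12.6 (1.30 ± 0.11, adjusted p = 7.67e-11).

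Of the regulators of cone identity, 3 were measured. Sall3, a zinc finger factor of cones, rose from 116 ± 6.20 to 292 ± 37.5 (1.33 ± 0.09, adjusted p = 3.39e-13). Rxrg, a retinoid X receptor that represses S-opsin with the thyroid hormone receptor in part of the cones, rose from 88.5 ± 2.39 to 178 ± 3.82 (1.00 ± 0.06, adjusted p = 3.16e-13). Thrb, the thyroid hormone receptor gene, read 46.5, 67.3, 57.7 and 53.8 at P2 and 73.8, 69.3, 59.3 and 71.8 at P10, so the groups overlapped. Its change of 0.29 ± 0.11 was called at an adjusted p of 0.0474. That call was lost with the replicate number as a block (adjusted p = 0.0804), after median centring (0.107) or quantile normalisation (0.113), and without P2 replicate 1, 3 or 4 or P10 replicate 1, 2 or 4 (between 0.0551 and 0.203).

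The M-opsin gene Opn1mw, the middle-wavelength pigment, was the cone gene that did not pass. Its values were 61.7, 69.8, 84.9 and 63.1 at P2 and 99.3, 69.9, 77.0 and 73.1 at P10, with overlap (0.19 ± 0.17, adjusted p = 0.403). At 2 months the knockout arrays read 630 ± 171 for Opn1mw and 7122 ± 157 for Opn1sw. In wild-type retina Opn1mw rose from 74.3 ± 13.5 to 157 ± 39.0 by P10. The difference between the changes, -0.87 ± 0.24, was called at an adjusted p of 0.0478. It was not called in 16 of the alternatives (adjusted p up to 0.127), among them leaving out any 1 of knockout P2 replicates 2, 3 and 4, knockout P10 replicates 2, 3 and 4, wild-type P2 replicates 2, 3 and 4 or wild-type P10 replicates 1, 2 and 3. Pde6c, Pde6h, Cngb3, Arr3, Grk1, Slc24a2 and Kcnv2 were listed but are not analysed here.

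**Figure D1:**
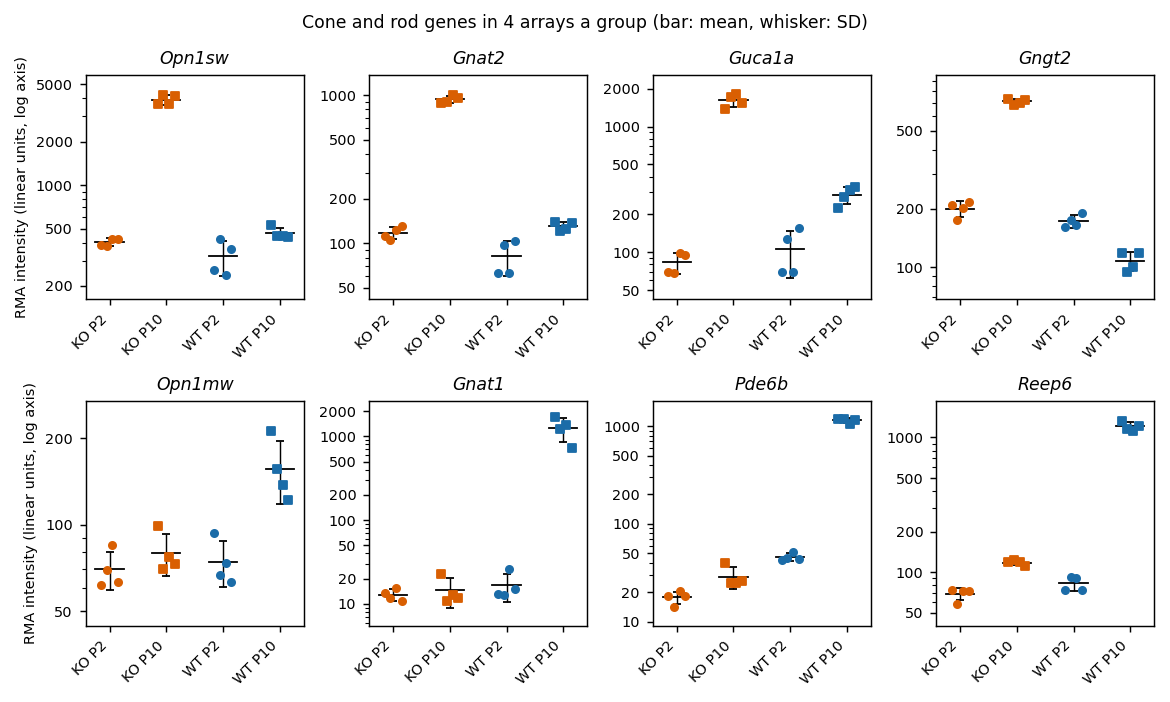
Each panel plots RMA intensity on a log axis for 1 gene, with 1 point per array for knockout (orange) and wild-type (blue) retina at P2 (circles) and P10 (squares), a bar for the mean and a whisker for the SD (n = 4). Knockout P10 arrays lie above all other groups shown for Opn1sw, Gnat2, Guca1a and Gngt2, whereas for Gnat1, Pde6b and Reep6 the wild-type P10 arrays do.

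Of 8 measured rod genes 2 rose and 0 fell, near the share over all genes of 20.1% that rose, with a median change of 0.11, against 2.20 in wild-type retina, where 7 rose. Gnat1, the alpha subunit of rod transducin, read 13.5, 11.7, 15.6 and 10.9 at P2 and 23.1, 10.8, 12.9 and 11.7 at P10, at the level of the dimmest probe sets at both ages (0.12 ± 0.35, adjusted p = 0.819). Wild-type retina went from 16.8 ± 6.20 to 1249 ± 404 for this gene. The rod channel subunit Cnga1 stood at 17.5 ± 1.52 and 16.2 ± 0.940 in the knockout (-0.11 ± 0.10, adjusted p = 0.445) and rose to 154 ± 23.1 in wild type. Both defining rod genes were thus at or near background in knockout retina at P10.

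Reep6, an endoplasmic reticulum protein needed by rods, was 1 of the pair that rose. It read 73.7, 58.7, 72.7 and 72.5 at P2 and 118, 123, 118 and 111 at P10 (0.76 ± 0.09, adjusted p = 8.13e-08). Pde6b, the beta subunit of rod phosphodiesterase, read 18.2, 14.2, 20.4 and 18.2 at P2 and 39.51, 24.95, 24.94 and 25.97 at P10 (0.69 ± 0.13, adjusted p = 8.16e-05). P10 replicate 1 was the highest of the 4 for Pde6b and for Gnat1. Both risers ended far below wild-type P10, where Reep6 read 1207 ± 93.4 and Pde6b 1148 ± 64.2. Pde6a, the alpha subunit, went from 60.3 ± 16.9 to 72.4 ± 11.99 and was not called (0.30 ± 0.16, adjusted p = 0.16). Under the replicate block it was (adjusted p = 0.0305). Esrrb, a nuclear receptor of rods, and Gnb1, a transducin beta subunit made in many cells, changed by 0.09 (adjusted p = 0.571) and 0.05 (adjusted p = 0.84). Of 2 further Gnb1 probe sets 1 was called lower (-0.57) and 1 was not (0.02). Gngt1, Cngb1, Nr2e3 and Slc24a1 are not analysed here.

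Genes that rods and cones share rose in the knockout. Of 19 measured members 15 rose and 0 fell, with a median change of 1.54, and 18 rose in wild-type retina, with a median of 1.90. Sag, an arrestin that ends the light response, read 49.1, 26.7, 52.9 and 53.4 at P2 and 956, 1092, 960 and 930 at P10. This was the largest rise of any gene in the comparison (4.48 ± 0.17 or 22.4-fold, adjusted p = 6.27e-18). The wild-type change of Sag was 4.08, and the difference of 0.41 ± 0.25 did not pass the test (adjusted p = 0.643). Wild-type arrays nevertheless stood higher at both ages, at 245 ± 59.8 and 4037 ± 373.

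Other members fell into those with and those without a difference between the genotypes. Pde6g, the inhibitory phosphodiesterase subunit, rose from 217 ± 22.9 to 2170 ± 71.8 (3.33 ± 0.08), less than in wild type by a log2 difference of -0.90 (adjusted p = 6.77e-06). Rcvrn, the calcium sensor recoverin, rose from 69.5 ± 8.28 to 459 ± 54.9 (2.72 ± 0.11), less than in wild type by a log2 difference of -1.45 (adjusted p = 4.47e-07). The outer segment genes Rom1, a disc rim protein, Prom1, needed for disc formation, and Abca4, a retinoid transporter, rose by 2.41, 1.64 and 1.54, with differences of -1.12, -0.88 and -0.96 from the wild-type changes. By contrast, the differences were not called for Tulp1, a protein that moves cargo to the outer segment, nor for Pdc, phosducin, which binds transducin. Tulp1 rose from 499 ± 43.3 to 2455 ± 223 (2.30 ± 0.08), and Pdc from 83.8 ± 16.1 to 636 ± 37.4 (2.94 ± 0.10), though a second Pdc probe set did not pass (0.15). Crx, the homeobox factor that drives photoreceptor genes, rose from 528 ± 26.8 to 1266 ± 66.4 (1.26 ± 0.08, adjusted p = 1.76e-13). Its difference of -0.35 was not called (adjusted p = 0.12) except after quantile normalisation (adjusted p = 0.0285). Unc119, a chaperone of lipid-bearing proteins, rose by 1.99, and its difference of -0.32 passed after quantile normalisation (adjusted p = 0.00881) or with a pseudocount of 16 (adjusted p = 0.0446) but not otherwise.

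Gnb5, a partner of the RGS9 complex, Mak, a kinase of the photoreceptor cilium, and Pde6d, a prenyl-binding chaperone, rose by 1.62, 1.35 and 0.98. Rgs9, which speeds the shut-off of transducin, and Gucy2e, a guanylate cyclase, rose by 0.27 and 0.23. These last 2 calls were narrow (adjusted p = 0.0303 and 0.0344). They were lost after median centring or quantile normalisation, for Rgs9 also without P2 replicate 1 or 3 or P10 replicate 2, and for Gucy2e without P2 replicate 1, 2 or 4 or P10 replicate 1, 2 or 3 (adjusted p up to 0.18 for Rgs9 and 0.11 for Gucy2e). Prph2, a disc rim partner of Rom1, read 125, 124, 138 and 116 at P2 and 198, 144, 159 and 144 at P10. The ages did not overlap, yet the change of 0.35 ± 0.33 was not called (adjusted p = 0.435). It was called with the arrays compared alone (adjusted p = 0.0282) and with the replicate number as a block (adjusted p = 0.0169). The standard error rests on all 24 arrays, and Prph2 spread widely in other groups, with 416, 194, 465 and 181 in wild type at P10. Rpgr and Ift88, genes of the cilium, and Neurod1, a neurogenic factor kept by photoreceptors, changed by 0.12, 0.17 and -0.06 and were not called. Neurod1 differed from its wild-type change by -0.53 (adjusted p = 0.0398), a call lost without any 1 of 11 arrays: knockout P2 replicates 2 and 4, knockout P10 replicates 1, 3 and 4, and wild-type replicates 1, 3 and 4 of both ages (adjusted p up to 0.0995).

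The comparison with wild-type retina separated what was common to both genotypes from what differed. In wild type 38.7% of the genes were called. Of 1661 genes that rose in the knockout, 1143 also rose in wild type (68.8% of the knockout list and 73.5% of the wild-type list). Of 1357 genes that fell, 1184 also fell in wild type (87.3% and 72.4%). The 2 comparisons share no arrays, but 1 fit gave both the same spread for each probe set. Their calls were therefore not independent. Over all 8251 genes, 1555 rose and 1635 fell in wild type. The difference between the changes was called for 224 genes (2.71%). Among cone genes 8 of 10, Guca1a included, rose more in the knockout and 1, Opn1mw, less. Among rod genes, Nrl itself included, 6 of 8 changed less and 0 more, and among shared photoreceptor genes the change was lower than in wild type for 6 of 19, Neurod1 included, and higher for 0.

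**Figure D2:**
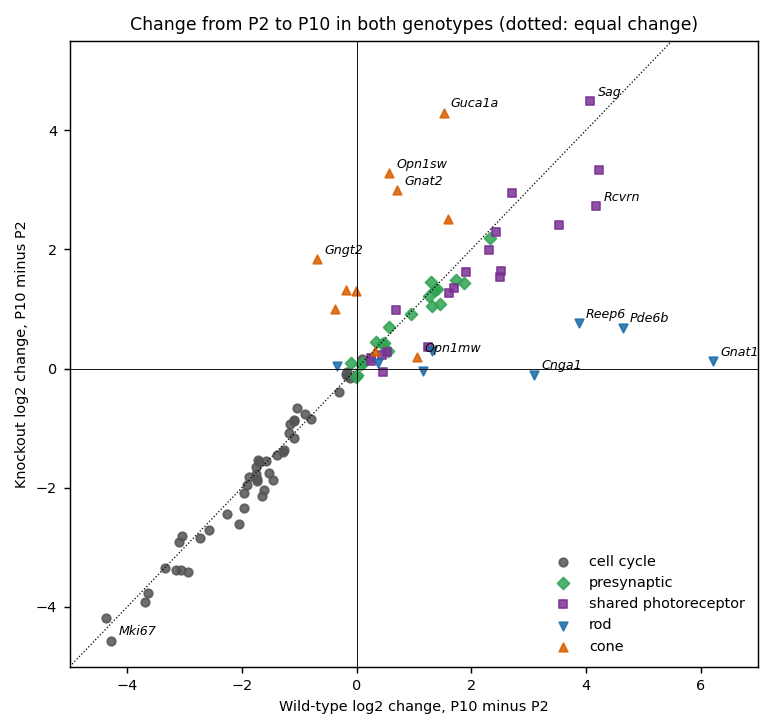
The plot sets the log2 change from P2 to P10 in knockout retina (vertical axis) against that in wild-type retina (horizontal axis), with 1 point per measured gene of 5 lists and a dotted line of equal change. Cone genes except Opn1mw and Thrb lie above the line, rod genes such as Gnat1 and Reep6 far to its right, and cell cycle and presynaptic genes near it.

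Several genes moved in opposite directions in the 2 genotypes. Of 8251 genes, 15 rose in the knockout and fell in wild type (0.903% of the genes that rose in the knockout). The reverse was seen for 5 (0.368% of the genes that fell in the knockout). Gas2, a protein associated with actin filaments, had the widest gap. It read 28.8, 54.7, 40.2 and 51.3 at P2 and 259, 396, 194 and 214 at P10 in the knockout, against 34.6 ± 2.87 and 20.3 ± 3.46 in wild type, and the changes differed by 3.37 ± 0.28 (adjusted p = 1.46e-09). At 2 months knockout arrays read 53.2 ± 15.2 for Gas2. A second Gas2 probe set, very dim at both ages (5.27 and 6.63), rose by only 0.34 in the knockout. Gngt2, described above, differed by 2.52 ± 0.12 (adjusted p = 3.52e-15), since it fell in wild type from 172 ± 12.5 to 108 ± 12.1. Wwc1, which encodes the scaffold protein KIBRA, rose from 134 ± 20.6 to 473 ± 69.1 in the knockout and fell from 118 ± 8.70 to 85.4 ± 9.49 in wild type, a difference of 2.29 ± 0.18 (adjusted p = 7.09e-10). Rxrg and Srebf1, a regulator of lipid synthesis, belonged to the same 15, with differences of 1.38 and 0.78.

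Picked after their values were seen, Ece1, an endothelin-converting enzyme, and Epha8, an ephrin receptor, also moved apart. Ece1 rose from 296 ± 44.1 to 604 ± 111 and fell from 347 ± 14.2 to 214 ± 26.4 in wild type. Epha8 rose from 170 ± 19.7 to 222 ± 6.88 and fell from 177 ± 12.3 to 83.5 ± 7.96. The other genes higher in the knockout and lower in wild type were Tnfsf9, Cltb, Inhbb, Slc38a10, Zdhhc14, Nin, Tspan9 and Slc25a28. The 5 of the reverse pattern were Cdr2, Ankrd33b, Cd164, Mlf1 and Macir, also named after their values were seen. Cdr2 led them, falling from 37.3 ± 4.39 to 23.2 ± 2.01 in the knockout and rising from 39.4 ± 2.58 to 78.3 ± 7.42 in wild type. The difference between the changes was called for each of the 20 genes. Since they were chosen for called changes of opposite sign, this largely follows from the choice.

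Genes of other kinds were among the largest rises. Htra1, a secreted serine protease, rose from 149 ± 14.6 to 964 ± 27.1 (2.70 ± 0.09) and exceeded the wild-type change by 0.96 (adjusted p = 6.01e-06). Gzmm, the protease granzyme M, rose from 31.3 ± 5.46 to 185 ± 22.9 (2.57 ± 0.14) and exceeded it by 1.82 (adjusted p = 5.36e-07). At 2 months Gzmm averaged 979 in the knockout. In the other direction, Drd4, a dopamine receptor of photoreceptors, rose from 80.0 ± 11.9 to 128 ± 3.16 in the knockout and from 92.9 ± 7.45 to 629 ± 241 in wild type, a difference of -1.96 ± 0.27 (adjusted p = 1.43e-05). Pla2r1, a phospholipase A2 receptor, rose from 11.3 ± 1.12 to 18.5 ± 2.34, both dim values, and reached 61.8 ± 6.05 in wild type (difference -1.69, adjusted p = 2.06e-09).

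Genes of dividing cells fell steeply. Of 46 measured cell cycle genes 41 fell and 0 rose, with a median change of -1.79, against 16.4% falling and a median of 0.08 over all genes. The same number fell in wild type, with a median of -1.71. Mki67, the proliferation marker Ki-67, read 373, 358, 281 and 340 at P2 and 12.6, 12.8, 15.5 and 16.4 at P10, the level of the dimmest probe sets (-4.56 ± 0.12, adjusted p = 3.36e-21). A second, dimmer Mki67 probe set did not pass (0.05). Ccnd1, cyclin D1, the main D-type cyclin of retinal progenitors, went from 2029, 2146, 2137 and 2225 to 111, 101, 121 and 139 (-4.19 ± 0.10, adjusted p = 5.26e-22). Ccnd1 stayed clear of the dim range at both ages, and its second probe set fell too (-2.34).

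Genes of DNA replication and of mitosis were among the falls. For DNA replication, Mcm5, of the replicative helicase, fell by 2.91 and Pcna, the sliding clamp, by 2.13. Rrm2, a subunit of ribonucleotide reductase, fell from 313 ± 28.3 to 29.8 ± 1.83 (-3.39 ± 0.09). Among mitotic genes, Cdk1, the kinase that drives entry into mitosis, read 515, 472, 497 and 538 at P2 and 48.5, 47.7, 49.5 and 48.7 at P10 (-3.38 ± 0.09, adjusted p = 3.7e-21). Top2a, the topoisomerase that untangles replicated DNA, fell from 428 ± 59.6 to 28.2 ± 4.47 (-3.92 ± 0.12), Cks2, a partner of Cdk1, from 748 ± 111 to 54.9 ± 4.87 (-3.76 ± 0.10), and Birc5, survivin, from 313 ± 66.9 to 28.7 ± 1.80 (-3.42 ± 0.14). For Rrm2, Cdk1, Top2a, Cks2 and Birc5 every P10 array lay below every P2 array, which the choice of the largest falls required. The promoters of Cdk1 and Top2a are printed above.

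Of the other genes with the 12 largest falls, Myb, a transcription factor of proliferating cells, fell from 1378 ± 254 to 122 ± 14.0 (-3.48 ± 0.18), and Nusap1, a spindle protein, from 233 ± 44.9 to 23.6 ± 4.53 (-3.30 ± 0.14). Second, dimmer probe sets of Myb and Nusap1 did not pass (-0.13 and -0.20). Trim59, a ubiquitin ligase, and Hmgb2, a chromatin protein, fell by 3.35 each, to 13.1 ± 0.990 and 13.5 ± 0.900, values that cannot be told from background. The 5 cell cycle genes not called were the cyclins Ccne1 and Ccnd2, the inhibitors Cdkn1b and Cdkn1c, and the helicase gene Mcm6. Their changes lay between -0.15 and 0.17. Leaving out any 1 of the 8 knockout arrays left the count of falls at 41. The changes of 2 of the 46 measured members differed between the genotypes, a count near the background share of 2.71% of all genes. Both were named after their values were seen. Ccna2, cyclin A2, fell further in the knockout (difference -0.56, adjusted p = 0.00168), and Lig1, DNA ligase 1, fell less (difference 0.37, adjusted p = 0.0209).

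Progenitor and neurogenic genes fell with the cell cycle genes. Of 32 measured members 26 fell and 0 rose, with a median change of -1.08 (wild type -0.93). Sox11, a factor of newly born neurons, read 790, 703, 940 and 959 at P2 and 94.4, 83.8, 116 and 82.3 at P10 (-3.17 ± 0.14, adjusted p = 6.2e-17), and its second probe set fell by 3.03. Genes of Notch signalling, which keeps progenitors undifferentiated, were among the falls. The receptor Notch1 fell by 1.94, its ligand Dll1 by 2.02, and the target Hes5 from 590 ± 68.8 to 120 ± 7.41 (-2.29 ± 0.14, adjusted p = 9.43e-14). A dim second Hes5 probe set did not pass (0.11). Hes6, a neurogenic relative of the Hes genes, fell from 993 ± 85.02 to 169 ± 10.6 (-2.56 ± 0.12). The eye field gene Pax6, which amacrine and ganglion cells keep, fell less, by 0.79, with P10 arrays averaging 464 ± 75.4. Neurod4, Six6, Btg2, Notch3, Insm1 and Id4 were not called. With the replicate number as a block 1 member was called higher in place of 0. The falls of Rax and Dlx2, both named after their values were seen, differed from those in wild type, by 0.55 (adjusted p = 0.00643) and -0.60 (adjusted p = 0.00576), and Dlx2 was dim in every group.

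**Figure D3:**
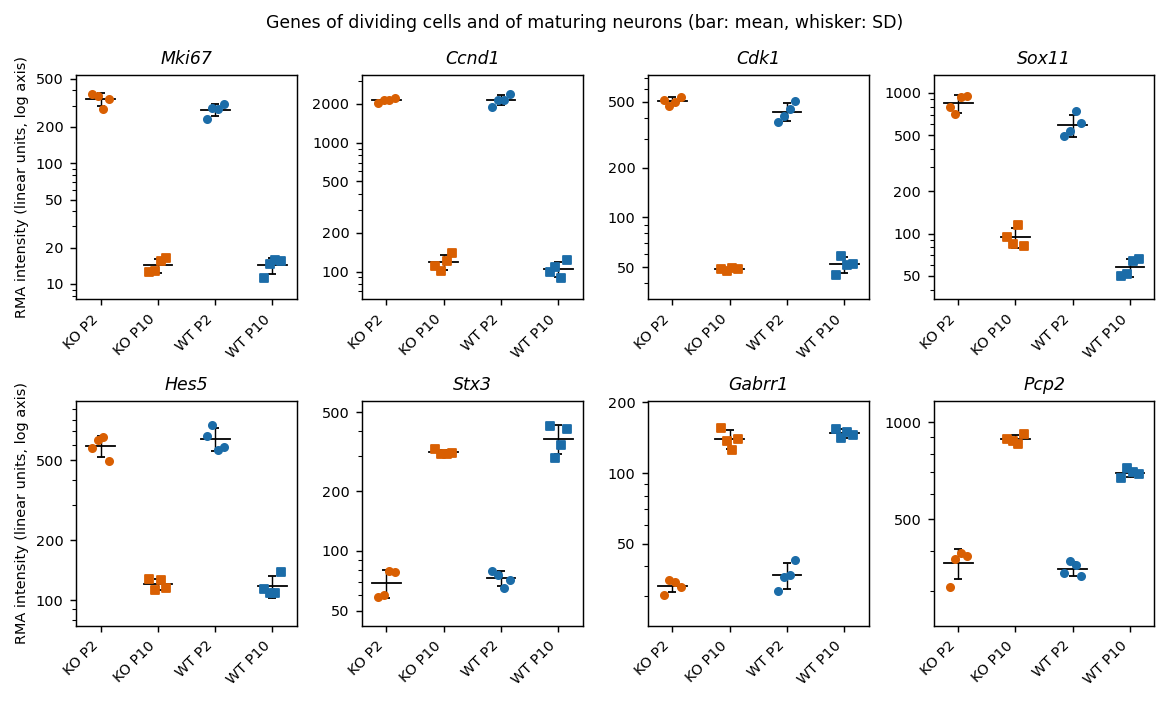
RMA intensity on a log axis is plotted for 8 genes, with 1 point per array, a bar for the mean and a whisker for the SD (n = 4) in knockout (orange) and wild-type (blue) retina at P2 (circles) and P10 (squares). Mki67, Ccnd1, Cdk1, Sox11 and Hes5 are lower and Stx3, Gabrr1 and Pcp2 higher in every P10 array than in every P2 array of the same genotype.

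Genes of neurite growth also fell, by smaller amounts. Of 29 measured members 13 fell and 1 rose, with a median change of -0.24. Dcx, the microtubule protein doublecortin of migrating neurons, fell from 297 ± 21.5 to 138 ± 13.7 (-1.11 ± 0.09), Efnb2, a guidance ligand, by 1.11, and Marcks, an actin regulator of growth cones, from 1395 ± 131 to 658 ± 67.9 (-1.08 ± 0.11). Stmn3, of the stathmin family, was the 1 that rose (0.37 ± 0.07, adjusted p = 0.000155). Its second probe set did not pass (0.14). Without P2 replicate 3 the count of rises was 2.

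Synaptic genes rose. Of 20 measured presynaptic and ribbon synapse genes 15 rose and 0 fell, with a median change of 0.80, against 0.76 in wild type. Stx3, the syntaxin of photoreceptor and bipolar ribbon synapses, read 58.9, 60.3, 78.9 and 78.8 at P2 and 328, 309, 307 and 313 at P10 (2.19 ± 0.12 or 4.58-fold, adjusted p = 2.31e-14), and its 2 further probe sets rose by 1.36 and 1.24. Dnm1, the dynamin that retrieves vesicles, rose from 451 ± 51.6 to 1260 ± 111 (1.48 ± 0.09), and Syp, the vesicle protein synaptophysin, from 50.3 ± 9.48 to 136 ± 16.2 (1.45 ± 0.12). Fusion proteins Snap25 and Vamp2 rose by 1.34 and 1.22. Syt4, Cplx2, Stx1a, Rab3a and Bsn were not called, with changes between -0.14 and 0.10. The difference between the genotypes was called for 0 of the 20, and in the lists of receptors, bipolar, amacrine and horizontal, and ganglion cell genes that follow it was also called for 0. Since it was called for only 2.71% of all genes, a count of 0 in lists this short is near the background.

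Receptors and transporters for transmitters rose for 12 of 20 measured genes, and 0 fell (median change 0.31). Gabrr1, a subunit of the GABA receptor on bipolar cells, read 30.4, 35.0, 34.2 and 32.7 at P2 and 156, 137, 125 and 140 at P10 (2.07 ± 0.09 or 4.21-fold, adjusted p = 1.63e-16). Glrb, the beta subunit of the glycine receptor, rose by 1.11 ± 0.10 and Slc6a9, a glycine transporter, from 269 ± 13.2 to 539 ± 19.3 (1.00 ± 0.07). Gria2, an AMPA receptor subunit, rose by 0.85. The Glrb change differed from that in wild type by -0.40, which did not pass the test (adjusted p = 0.224) except without wild-type P2 replicate 4 (adjusted p = 0.0286).

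Bipolar cell genes rose for 7 of 8 measured members and fell for 0, with a median change of 0.91. Pcp2, a G protein regulator of bipolar cells, read 308, 376, 392 and 384 at P2 and 888, 874, 858 and 920 at P10 (1.28 ± 0.08, adjusted p = 2.48e-13), and its second probe set rose by 1.22. Car8, a carbonic anhydrase relative, and Rgs11, which shortens the ON bipolar response, rose by 1.09 ± 0.18 and 1.08 ± 0.11. A very dim second probe set of Rgs11 did not pass (0.02). Prkca, protein kinase C alpha of rod bipolar cells, rose by 0.75 and Pcp4 was the 1 gene not called. Most listed bipolar genes, among them Grm6, Vsx1 and Cabp5, are not analysed here.

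Of 17 measured amacrine and horizontal cell genes 9 rose (52.9%, against 20.1% of all genes), with a median change of 0.27. The 3 that fell (17.6%) were near the share over all genes of 16.4%. Those that rose included Calb1, the calcium buffer calbindin of horizontal cells (1.34 ± 0.10), and, among genes of inhibitory transmission, Slc32a1, the vesicular GABA and glycine transporter (223 ± 14.98 to 535 ± 21.1, 1.27 ± 0.08), and Gad1, which makes GABA (154 ± 13.6 to 367 ± 48.8, 1.25 ± 0.11). The AP-2 factors of amacrine cells Tfap2a and Tfap2b fell by 0.61 ± 0.09 and 0.40 ± 0.12 (adjusted p = 2.59e-06 and 0.0127). Gad2, the other GABA-making enzyme, was dim and overlapped between the ages (22.04 ± 3.82 and 17.2 ± 2.41, -0.35 ± 0.12, adjusted p = 0.0275). Its call was lost with the replicate number as a block (adjusted p = 0.0809) and without P2 replicate 2 or 4 or P10 replicate 2, 3 or 4 (up to 0.123). Without P10 replicate 2 or 4 Tfap2b was not called either (adjusted p = 0.0578 and 0.0545), which left 1 fall.

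Ganglion cell genes had no common direction. Of 14 measured, 5 rose (35.7%, against 20.1% of all genes) and 3 fell (21.4%, against 16.4%), with a median change of 0.04 (wild type -0.07). Isl1, a homeobox factor of ganglion, bipolar and starburst amacrine cells, rose from 60.9 ± 4.43 to 185 ± 31.1 (1.59 ± 0.10, adjusted p = 1.73e-13). Nefh, the heavy neurofilament, and Thy1, a surface protein, rose by 0.90 ± 0.09 and 0.82 ± 0.10. Rbpms, an RNA-binding protein of ganglion cells, fell from 204 ± 25.3 to 121 ± 10.7 (-0.74 ± 0.11), and Gap43, a growth cone protein, by 0.57 ± 0.11. Sncg, gamma-synuclein, fell by 0.24 (adjusted p = 0.0221), a call lost without P2 replicate 4 or P10 replicate 1 (adjusted p = 0.12 and 0.0514), while its second probe set fell by 0.41. With the replicate number as a block 5 members fell in place of 3. The Nefh change differed from that in wild type by -0.43, which was not called (adjusted p = 0.104) but was with the replicate block (adjusted p = 0.0461) and without wild-type P10 replicate 4 (adjusted p = 0.0262).

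**Figure D4:**
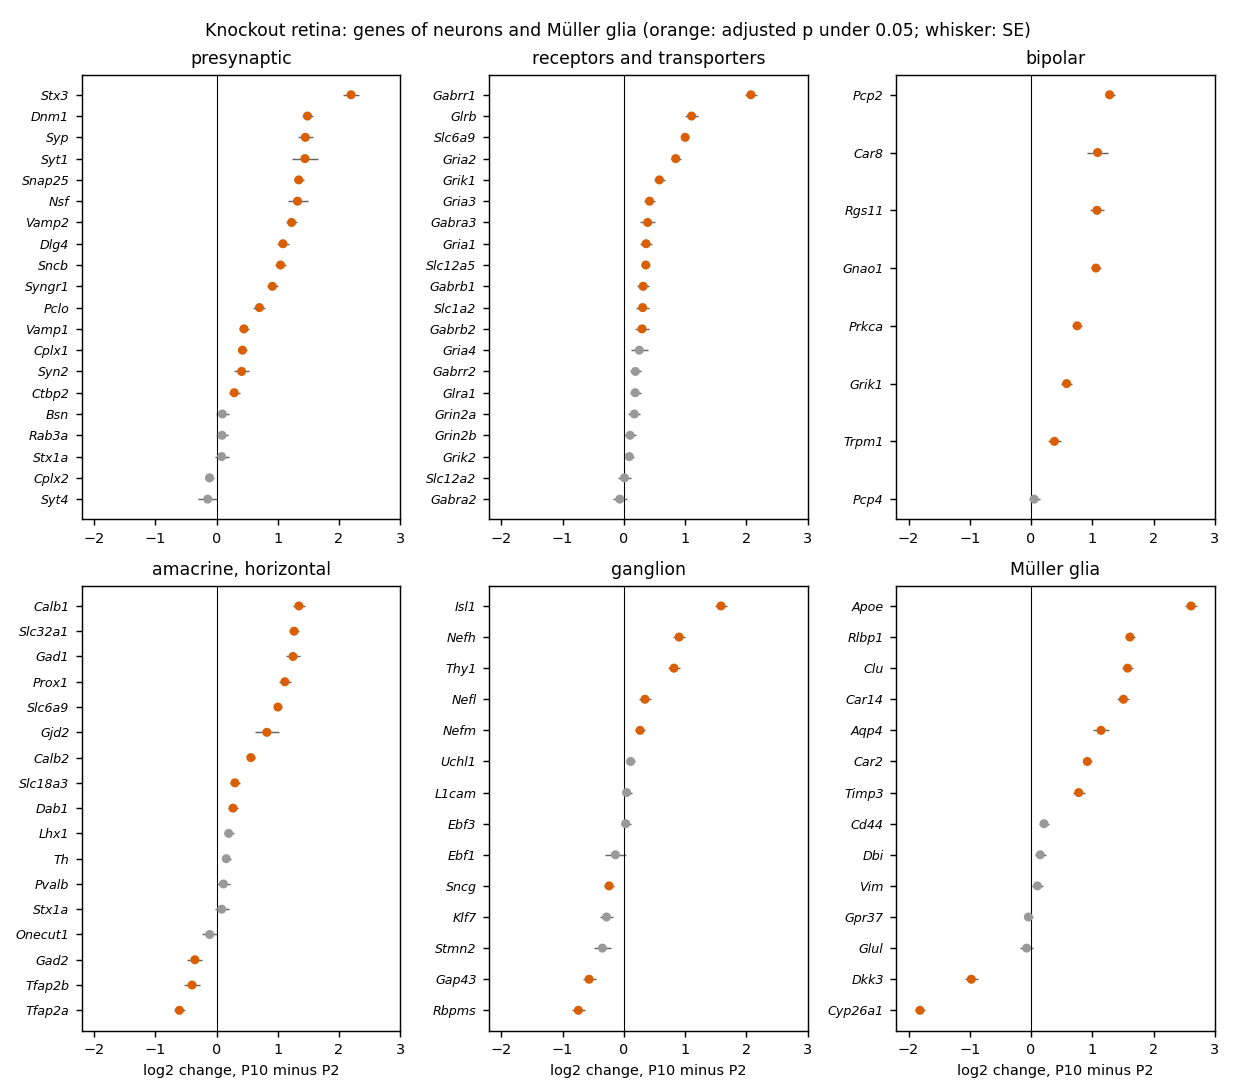
Points give the log2 change, P10 minus P2, of each measured gene in knockout retina for 6 lists, with whiskers of 1 standard error, in orange where the adjusted p was under 0.05 and in grey otherwise. Presynaptic, receptor and bipolar genes in orange lie to the right of 0, whereas amacrine and horizontal, ganglion and Müller lists hold orange points on both sides.

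Müller glia are the radial glia that support photoreceptors and recycle transmitter and retinoid. Of 14 measured genes of these cells 7 rose and 2 fell, with a median change of 0.50. The falls (14.3%) were near the share over all genes of 16.4%. Rlbp1, which carries 11-cis-retinoid, rose from 175 ± 10.6 to 537 ± 18.5 (1.61 ± 0.08, adjusted p = 7.78e-16), and Clu, clusterin, from 74.6 ± 5.25 to 222 ± 13.0 (1.58 ± 0.09). Apoe, a lipid carrier, read 556, 404, 506 and 562 at P2 and 2972, 3030, 3019 and 3293 at P10 (2.61 ± 0.09 or 6.12-fold, adjusted p = 1e-18). Apoe rose further in the knockout than in wild type, where it went from 587 ± 60.5 to 1377 ± 43.8 (difference 1.38 ± 0.13, adjusted p = 3.15e-08). A second Apoe probe set, dim at both ages, did not pass (0.27). Cyp26a1, which degrades retinoic acid, fell from 89.2 ± 10.2 to 25.3 ± 0.940 (-1.81 ± 0.08) and Dkk3, a secreted protein of progenitors and Müller glia, from 1270 ± 75.3 to 645 ± 35.0 (-0.98 ± 0.11). Glul, glutamine synthetase, was named after its values were seen. It read 220 ± 25.2 and 208 ± 11.3 in the knockout and rose in wild type from 181 ± 8.70 to 257 ± 43.6 (difference -0.56, adjusted p = 0.0427). Of 10 genes of astrocytes and myelin 2 rose and 0 fell, near the 20.1% over all genes: Pdgfra (0.77), whose 2 other probe sets did not pass, and S100b (0.27, adjusted p = 0.0384). The S100b call was lost without P2 replicate 1 or 4 or P10 replicate 1 or 3 (up to 0.146), and 4 members were called with the replicate block.

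Genes of energy metabolism rose in part. Of 40 genes of the respiratory chain and citrate cycle 14 rose and 0 fell, with a median change of 0.17. Idh3a, Pdha1 and Ogdh, enzymes that feed or turn the citrate cycle, rose by 0.88 ± 0.11, 0.65 ± 0.10 and 0.53 ± 0.10, and a very dim second Idh3a probe set did not pass (-0.03). Glycolytic genes rose for 9 (47.4%, against 20.1% of all genes) and fell for 4 of 19 (21.1%, against 16.4%), with a median of 0.32. Aldoc, aldolase C, read 65.1, 79.4, 75.1 and 72.6 at P2 and 392, 263, 471 and 335 at P10 (2.29 ± 0.12, adjusted p = 2.99e-15). Eno2, neuronal enolase, rose from 106 ± 13.1 to 465 ± 28.2 (2.13 ± 0.10) and Pfkp, a phosphofructokinase, by 0.89. The glucose transporter Slc2a1 fell from 670 ± 44.8 to 341 ± 23.9 (-0.98 ± 0.08), hexokinase Hk1 by 0.54 and Pgk1 by 0.42, and Ldhb fell by 0.28.

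Wild-type retina differed for 5 glycolytic genes, of which the 4 others than Pgk1 were named after their values were seen. Hk2, the hexokinase of photoreceptors, rose by 0.57 in the knockout against -0.03 in wild type (difference 0.60, adjusted p = 0.0387). Aldoa rose less than in wild type, by a difference of -0.51 (adjusted p = 0.0387). For Pgk1, Pgam1 and Pkm, whose knockout changes were -0.42, 0.05 and 0.10, the differences were -0.50, -0.45 and -0.40 (adjusted p = 0.0114, 0.0114 and 0.0427).

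Enzymes of sterol synthesis fell. Of 16 measured genes 9 fell and 1 rose, with a median change of -0.47. Idi1, an isomerase of the isoprenoid path, fell from 396 ± 63.6 to 131 ± 15.7 (-1.60 ± 0.11), Hmgcs1, which makes its precursor, from 408 ± 47.5 to 176 ± 23.4 (-1.21 ± 0.12), and Sqle, squalene epoxidase, from 603 ± 50.5 to 282 ± 26.1 (-1.10 ± 0.07). Each fell in wild type as well, with changes of -1.73, -1.11 and -1.04. Srebf1, which chiefly drives fatty acid synthesis genes, was the 1 that rose. It read 377, 408, 445 and 413 at P2 and 509, 554, 558 and 522 at P10 (0.38 ± 0.08, adjusted p = 0.00018), and fell in wild type from 494 ± 39.3 to 377 ± 33.2 (difference 0.78 ± 0.11, adjusted p = 1.72e-05). Without P2 replicate 3 the count of rises was 2.

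Of 12 measured retinoid handling genes 5 fell (41.7%, against 16.4% of all genes), with a median change of 0.14 (-0.12 in wild type). The 2 that rose (16.7%) were near the share over all genes of 20.1%. Aldh1a1 and Aldh1a3, which make retinoic acid, fell by 1.47 ± 0.11 and 1.19 ± 0.12, and Crabp2, which carries it, by 1.45 ± 0.12. Aldh1a3 ended at 12.6 ± 1.12, within the dim range, and a dim second Aldh1a1 probe set did not pass (0.09). The 2 rises were Rlbp1 and Abca4, described above. Without P2 replicate 3, 4 members rose. Aldh1a1 fell further than in wild type by a difference of -0.50, not called (adjusted p = 0.0962) but called with the replicate block (adjusted p = 0.025).

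Of 30 extracellular matrix genes 7 rose and 5 fell, close to the background, with Sparc, a matrix glycoprotein, rising from 62.8 ± 6.66 to 198 ± 15.4 (1.66 ± 0.14). Bgn and Tnc rose by 0.61 and 0.49, and Col5a2, Lama1 and Vcan fell by 0.85, 0.64 and 0.44. A second Bgn probe set did not pass (0.17). The changes of 3 matrix genes were lower than in wild type. These were Col5a2 (difference -0.76, adjusted p = 0.0133) and, named after their values were seen, the basement membrane collagens Col4a1 (difference -1.02, adjusted p = 2.36e-05) and Col4a2 (difference -0.59, adjusted p = 0.00017). Col4a1 read 247 ± 16.1 and 237 ± 19.0 in the knockout and 128 ± 26.0 and 247 ± 23.0 in wild type, so that the P2 levels were apart and the P10 levels close.

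Genes of cells that share the dissected tissue with neurons moved with age too. Of 20 vascular genes 13 rose and 2 fell, among them the endothelial junction gene Cdh5 (1.04 ± 0.08), Eng (0.93 ± 0.07), a TGF-beta co-receptor, and the receptor Tie1 (0.66 ± 0.09). The VEGF receptor gene Kdr fell, with overlap between the ages (-0.52 ± 0.12, adjusted p = 0.000722), as did Slc2a1. The pericyte gene Rgs5, named after its values were seen, rose less than in wild type (difference -0.56, adjusted p = 0.0131). Of 17 genes of microglia and macrophages 9 rose and 0 fell, led by the complement genes C1qa (0.83 ± 0.08) and C1qb (0.79 ± 0.14, with a second probe set at 0.13 that did not pass) and the protease gene Ctss (0.81 ± 0.10). Of 7 red blood cell genes 5 rose. Hba-a1, alpha globin, read 222, 182, 197 and 203 at P2 and 839, 622, 720 and 837 at P10 (1.90 ± 0.11), and Hbb-b2, beta globin, rose by 1.63. Counts for this list were 2 without P2 replicate 1 and 3 without P10 replicate 4 or with the replicate block. Slc4a1, the anion exchanger, lost its call (adjusted p = 0.0172) with the block (0.0806) and without P2 replicate 1 or P10 replicate 1 (0.124 and 0.0678).

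Summed over its genes, the red blood cell list lay between 419 and 446 at P2 and between 942 and 1163 at P10, the microglia list between 884 and 1085 and between 1256 and 1367, and the vascular list between 1937 and 1955 and between 1851 and 2013. The median log2 level of each of these lists was higher in all 4 P10 arrays than in all 4 P2 arrays (exact permutation p = 0.0286, the smallest that 4 against 4 arrays allow, and 0.0572 adjusted over 6 lists, two-sided). Retinal pigment epithelium genes rose for 2 of 9, near the 20.1% over all genes. These were Dct (0.72) and Trpm1 (0.38), the latter also a bipolar gene. The count was 1 of 5 with dim probe sets left out and 4 of 9 with array weights. The medians of this list overlapped in part between the ages (exact p = 0.0857, adjusted 0.129). For astrocyte and myelin genes the exact p was 0.257 (adjusted 0.308). Lens crystallins and other lens genes, which mark carried-over lens, were called for 0 of 11. Their sum ranged from 677 to 4973 among P2 arrays and from 933 to 3352 among P10 arrays (exact p = 0.629). Of 4 sex-linked genes 0 were called. The part of these tissues in the changes of the other lists was not tested.

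**Figure D5:**
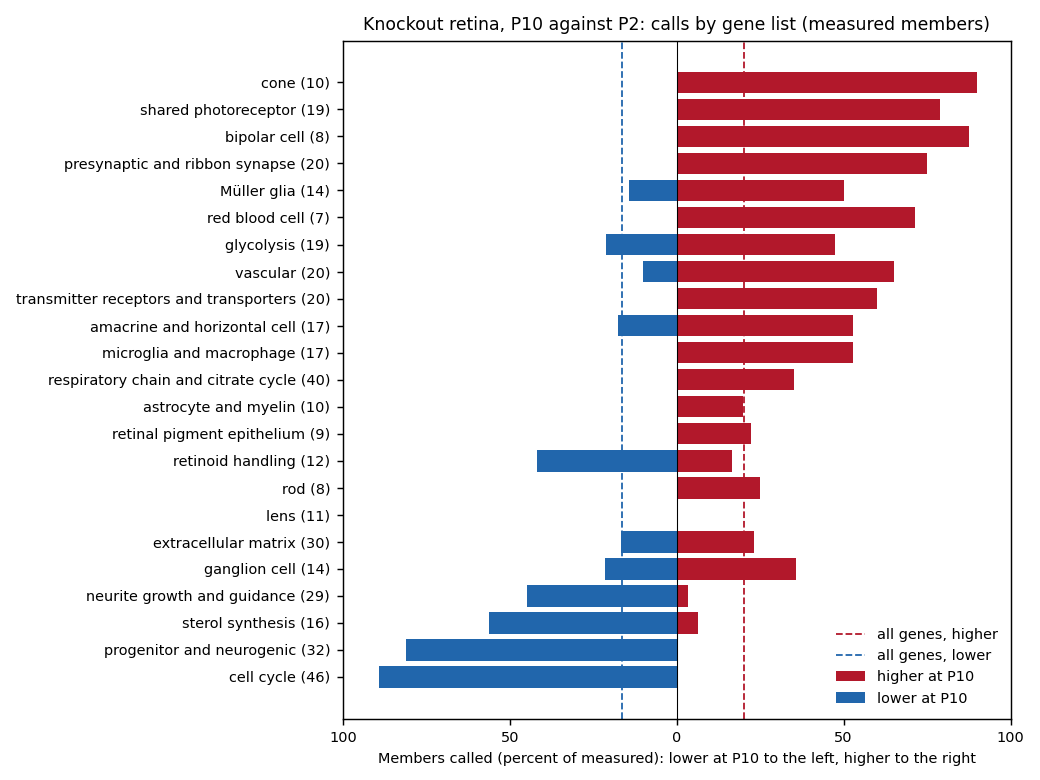
Bars give the percent of the measured members of each list (number in brackets) that were called higher (red, to the right) or lower (blue, to the left) at P10 than at P2 in knockout retina, with dashed lines at the shares over all 8251 genes. Cone, shared photoreceptor, bipolar and presynaptic lists reach 75.0% or more to the right, and cell cycle and progenitor lists more than 80% to the left.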

How the data were processed

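Retinal RNA of 6 groups of 4 mouse samples was measured on oligonucleotide arrays. The deposited table holds a linear intensity for every probe set on each array. Per the submitters' processing notes, these intensities came from RMA, with no version given. RMA subtracts background and quantile normalises, which can compress changes of dim probe sets. The 66 control probe sets were left out and log2 was taken of the other 12422. limma 3.58.1 in R 4.3.3 fitted 1 mean per group over 24 arrays, with Benjamini-Hochberg adjustment and a threshold of 0.05, and was tested on simulated data. Of the probe sets, 10833 have 1 gene symbol in the platform annotation, 396 several and 1193 none. A gene was represented by the probe set with the highest mean of those with 1 symbol. Of 555 listed genes 420 were measured. Genes named are members of the photoreceptor lists, the 12 largest called rises and the 12 largest called falls, the 6 largest genotype differences each way and the 3 largest called members each way of every list, the largest rises and falls being taken from genes whose arrays did not overlap between the ages. Mcm5, Pcna, Notch1, Dll1, Pax6, Snap25, Vamp2, Gria2, Prkca, Ldhb, the members listed as not called and the others so marked fall outside this rule and were chosen after their values were seen. The members, lists and motifs were chosen with earlier results of these data known.

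Arrays limit precision by their number, 4 per group. Same-numbered P2 and P10 arrays deviated together, with correlations of 0.372, 0.191, 0.340 and 0.178, although replicate 4 correlated best with number 2. The labels give the numbers and no shared litter or day. These correlations alone are the basis on which the numbers were counted as paired, and only in the alternative with a block. The main fit had no block, so p-values given without mention of a block leave this pairing out. Alternatives changed the scaling, filter, pseudocount, threshold, variance model, arrays fitted, block or probe set rule, or left out 1 array.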

Additional observations from a re-analysis of the deposited data

Results flagged for a closer look

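In 8 of the 246 groups of 4 examined for the named genes, 1 array stood far from the other 3, where chance alone would mark about 1 in 20 groups. At P2 these were Reep6 at 58.67 against 72.45 to 73.65, Sag at 26.7 against 49.13 to 53.43, Idi1 at 491.5 against 359.58 to 369.23, and Sparc at 52.87 against 65.12 to 67.26. At P10 they were Pde6b at 39.51 against 24.94 to 25.97, Eno2 at 506.94 against 447.63 to 452.5, Sqle at 321.35 against 266.75 to 270.39, and Kdr at 201.47 against 162.17 to 165.57. The call of each of these 8 genes was kept without the array concerned.

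The change from P2 to P10 differed between knockout and wild-type retina, by the limma interaction over all probe sets, and the 6 genes with the largest called difference in each direction are given here. Larger in the knockout were those of Gas2 (3.37), Guca1a (2.77), Opn1sw (2.70), Gngt2 (2.52), Wwc1 (2.29) and Gnat2 (2.28). Smaller were those of Gnat1 (-6.10), Pde6b (-3.96), Cnga1 (-3.20), Reep6 (-3.11), Drd4 (-1.96) and Pla2r1 (-1.69). Values are log2 differences, and those of Gnat1, Pde6b, Cnga1 and Pla2r1 include knockout levels near background.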

How the results depend on the processing

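The count of called probe sets, 4015, stayed within 1.5 times under every alternative run, from 2966 at an adjusted p under 0.01 to 4504 with array weights, and between 3539 and 4212 when 1 array was left out. Changes of at least 2-fold numbered 504, and 491 to 529 when 1 array was left out. The count of genotype differences, 276, fell to 174 at an adjusted p under 0.01 and rose to 486 with array weights, and lay between 216 and 309 when 1 array was left out. No named change turned its direction where it was called, but median centring turned the balance of higher and lower calls, to 1712 and 2075 for the age change and from 147 and 129 to 108 and 141 for the genotype difference. With the replicate number as a block 4116 probe sets were called for the age change and 340 for the genotype difference. Of the named genes the block ended the calls of Thrb, Gad2 and Slc4a1, added those of Pde6a and Prph2, added the genotype differences of Nefh and Aldh1a1, and changed no other call. Over all alternatives the age call changed for 10 of 123 named genes and the genotype call for 13. Array medians and the lack of detection calls limit small and dim changes: leaving out probe sets with a mean under 50 (39.4% of them) left 3383 calls, and the median change of all probe sets was 0.08, or 0.03 after median centring.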
